A study of Equus caballus with 4 samples.

Results

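The genes of the creatine kinase and AMP deaminase systems, with those of adenylate kinase 1, the muscle adenylosuccinate synthase and myoglobin, were examined in differentiating equine satellite cells (ESC) with and without β-hydroxy-β-methylbutyrate (HMB). The genes were listed by name: *CKM*, *CKB*, *CKMT2*, *AK1*, *AMPD1*, *AMPD3*, *ADSSL1* and *MB*. Every probe that the array files name as one of them was taken, whatever its signal. A probe was found in this way for 7 of the 8 genes, 14 probes in all, out of 13769 genes with a symbol on the array. No probe bears the name *ADSSL1*.

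ESC are the muscle stem cells that divide and fuse into new fibres, and HMB is a metabolite of leucine used as a supplement. The cells were primary cultures from the semitendinosus muscle of 6 colts, 6 months of age. They were kept in differentiation medium for 48 h, after which HMB was added for 24 h to the treated cells, and treated and control cells were collected on day 3. The array compared mRNA of both, in 4 hybridisations on 1 slide that form a single group of replicates. The concentration of HMB is 50 µM in the methods section and 50 µg in the sample descriptions. Those descriptions also call the cells GO-treated, while titles and source names say HMB, which was followed here. Which colts went to which array, and whether an array paired treated and control cells of 1 colt, is not given in the sources used here, so the P values measure only the spread between these 4 arrays. Treated cells were always in Cy5 and control cells in Cy3, and a preference of a probe for either dye is therefore part of its ratio.

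Muscle holds its ATP steady during work in several ways. Creatine kinase moves a phosphate between creatine and ADP, with a cytosolic muscle form (*CKM*), a cytosolic form of brain and immature muscle (*CKB*) and a form of muscle mitochondria (*CKMT2*). Adenylate kinase (*AK1*) makes ATP and AMP from ADP, and AMP deaminase (*AMPD1* in skeletal muscle, *AMPD3* in red cells and other tissues) turns that AMP into IMP, which adenylosuccinate synthase (*ADSSL1* in muscle) and adenylosuccinate lyase return to AMP in the purine nucleotide cycle. Myoglobin (*MB*) stores oxygen. *CKM*, *CKMT2*, *AMPD1* and *MB* are known to be switched on as myoblasts form myotubes.

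The value of a probe is its log2 ratio of treated to control cells, so that negative values stand for less mRNA with HMB. Probes are 60 bases long, and their positions are given on the EquCab1 genome as the files give them; the files do not say in which exon a probe lies. Of 43603 probes, 27383 were bright enough to be tested with limma against a ratio of 0, two-sided, adjusted after Benjamini and Hochberg over all of them, with a threshold of 0.05. Where a gene had more than 1 tested probe, the brightest stands for it. The error given after a mean is the SD of the 4 arrays, whose small number limits the precision. The SD of the log2 ratios over tested probes was 0.35, 0.34, 0.39 and 0.48 on arrays 1 to 4, so that array 4 had the widest ratios overall.

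In HMB-treated cells, 5 of the 7 energy buffering genes passed the threshold in limma as lower, and 0 passed as higher. *AMPD1* had by far the lowest mean of the 7, followed by *CKM*. *AK1* and *AMPD3* did not pass. For comparison, 2147 of the 9474 tested genes with a symbol (22.7%) passed in either direction and 1063 (11.2%) passed as lower, and over all tested probes the share was 22.8%. The 7 genes were chosen with earlier results of these data known, so this comparison is descriptive only. The median of the 7 mean log2 ratios was -0.62, against 0.03 for all tested genes. With background corrected by normexp, with an offset of 50, it was -0.31 with loess and -0.49 without it. By array, the median of the 7 genes was -0.24, -0.61, -0.51 and -0.76 on arrays 1 to 4, the smallest shift being that of array 1. All 7 representative probes were well above background on every array for treated and for control cells, so that none of them entered through 1 group alone. At an unadjusted P under 0.05 there were 6 genes, against 3627 of all 9474. The count of 5 was 2 without array 2, 2 without array 3 and 3 with no filter on dim probes, where 9.35%, 9.84% and 8.46% of all probes passed, and 0 when each probe was tested on its own ratios, where 2.8% did. In RNA from whole cultures, fewer cells of a type and less RNA per cell cannot be told apart.

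**Figure D1:**
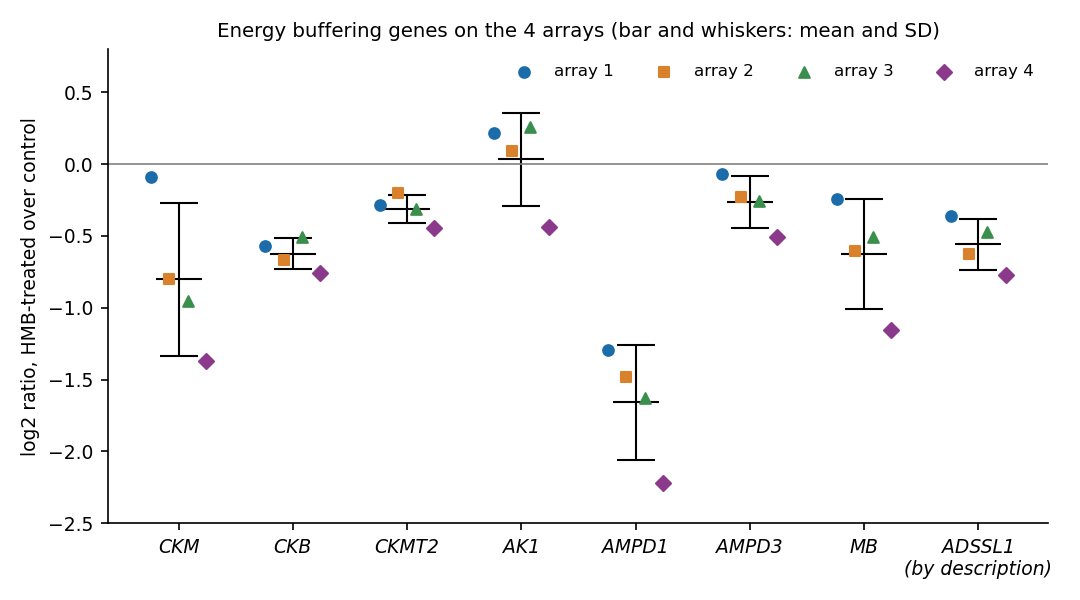
Log2 ratio of HMB-treated over control cells (vertical axis) for each gene on arrays 1 to 4 (points), with the mean and SD of the 4 arrays (bar and whiskers). The 4 points of *AMPD1* lie between -2.22 and -1.29, below those of every other gene on the same array, while those of *AK1* lie on both sides of 0; the probe shown for *ADSSL1* was found by its description.

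The only *CKM* probe (ENSECAT00000023921, chr10:15982221-15982280, minus strand) is open in 1 reading frame up to a stop triplet at its end, printed in capitals, as at the end of a coding sequence: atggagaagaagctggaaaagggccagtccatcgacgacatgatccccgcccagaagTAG. In control cells its processed intensity was between 6175 and 7233, and in treated cells between 2795 and 5884. The log2 ratio was -0.09, -0.80, -0.95 and -1.37 on arrays 1 to 4. Array 1 thus showed almost no difference, with 6267 in control and 5884 in treated cells, whereas the intensity of the treated cells was clearly lower on the 3 others. The control values varied little between arrays, and most of the spread arose in the treated channel. The mean was -0.80 ± 0.53 (standard error 0.19), 1.74-fold lower, with limma's adjusted P = 0.0304. A lower mean was found for 223 of the 9474 tested genes (2.35%). This call was lost without array 2 (mean -0.80, adjusted P = 0.0838 in limma), array 3 (-0.75, 0.101) or array 4 (-0.61, 0.0687), and kept without array 1 (-1.04, 0.0145). It was also lost with no filter on dim probes (0.138).

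*CKB* (ENSECAT00000009258) had 5 probes, which begin at consecutive bases from chr24:44498088-44498147 on the minus strand and share 56 to 59 bases with each other. They are nearly the same measurement made 5 times and not 5 pieces of evidence. The representative probe gave log2 ratios of -0.57, -0.66, -0.51 and -0.76 on arrays 1 to 4. The arrays were close together, with control intensities from 2190 to 2650 that did not overlap with the 1358 to 1783 of treated cells. The mean was -0.62 ± 0.11 (standard error 0.07), 1.54-fold lower, with limma's adjusted P = 0.00333. All 5 probes passed, with means from -0.62 to -0.57, and the largest difference between 2 of them on an array was 0.0836. The fall passed whichever array was left out. The probe of the muscle form and that of the form known from brain were thus both lower, with a much smaller SD between arrays for *CKB*.

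For the mitochondrial form *CKMT2* (ENSECAT00000026250, chr14:84012664-84012723, minus strand) the log2 ratio was -0.29, -0.20, -0.31 and -0.44 on arrays 1 to 4. All arrays pointed the same way within a narrow range, and the channels did not overlap, with 84.2 to 111 in control and 73.1 to 82.0 in treated cells. The mean of -0.31 ± 0.10 (standard error 0.07) corresponds to 1.24-fold lower and had an adjusted P = 0.0217 in limma. The difference is small: 1067 of the 9474 tested genes (11.3%) had a lower mean, and it would not meet an added minimum of 1.3-fold. The call was lost without array 2 (adjusted P = 0.0702 in limma) or array 3 (0.0884), and with channels compared without the pairing of an array (0.0957).

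**Figure D2:**
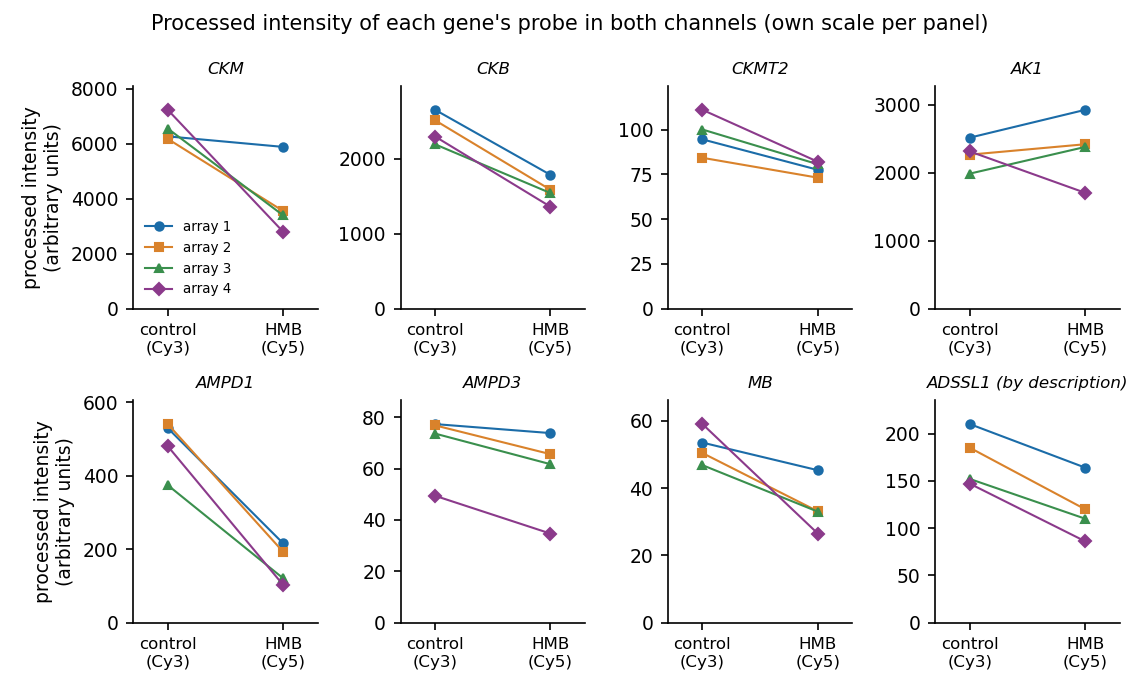
Processed intensity in arbitrary units (vertical axes, from 0, own scale in each panel) of each gene's probe in control (Cy3) and HMB-treated cells (Cy5), with a line joining both channels of an array. For *CKM* the treated value of array 1 (5884) stands near its control value (6267), while for *AMPD1* both channels are apart on all 4 arrays.

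*AK1* (ENSECAT00000008311, chr25:7411781-7411840, plus strand) had log2 ratios of 0.22, 0.09, 0.26 and -0.44 on arrays 1 to 4. The first 3 were above 0 and array 4 was below it, with intensities of 1984 to 2513 in control and 1702 to 2922 in treated cells that overlapped. The mean was 0.03 ± 0.32 (adjusted P = 0.867 in limma), which is less than the spread between arrays. Without array 4 it was 0.19 (adjusted P = 0.107 in limma), and it turned to -0.03 without array 1 and to -0.04 without array 3, so that no direction can be given.

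*AMPD1* (ENSECAT00000015935) had 2 probes on the minus strand that lie 13 bases apart and do not overlap, at chr5:29717401-29717460 and chr5:29717328-29717387. They are shown with an *AMPD3* probe (ENSECAT00000002468, chr7:67403188-67403247, plus strand) because that probe covers a similar stretch of the other AMP deaminase gene. Without gaps, 49 bases of it can be laid on the brighter *AMPD1* probe, and 35 of these match (71.4%), printed in capitals in both.
AMPD1, brighter probe: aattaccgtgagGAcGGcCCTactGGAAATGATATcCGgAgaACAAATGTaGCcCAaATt
AMPD1, other probe: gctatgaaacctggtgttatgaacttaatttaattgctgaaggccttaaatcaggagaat
AMPD3, similar stretch: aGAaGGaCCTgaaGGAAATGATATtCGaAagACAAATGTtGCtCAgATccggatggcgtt

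The log2 ratio of the brighter *AMPD1* probe was -1.29, -1.49, -1.63 and -2.22 on arrays 1 to 4. Its processed intensity was 529, 540, 374 and 480 in control cells and 216, 193, 121 and 103 in treated cells. Each array showed a clear difference, the largest on array 4, and the highest treated value lay well below the lowest control value. The mean was -1.66 ± 0.40 (standard error 0.15), 3.16-fold lower, with limma's adjusted P = 0.0019. The other probe gave -1.40, -1.44, -1.65 and -2.02, a mean of -1.63 ± 0.29 (3.09-fold lower, adjusted P = 0.00108 in limma). The probes thus differed by at most 0.20 on any array, although they are separate stretches of the transcript. Of the 9474 tested genes, 19 had a lower mean than *AMPD1* (0.201%), 18 of them past the threshold. The fall passed whichever array was left out, with means from -1.78 to -1.47.

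*AMPD3* had 3 probes. The probe printed above and another that overlaps it (chr7:67403208-67403267) were not well above background in either channel on any array and were not tested. The probe that matches *AMPD1* in 35 of 49 bases thus gave no usable signal, at intensities of 3.33 to 3.86 in control and 3.96 to 4.75 in treated cells. The third probe (chr7:67403262-67403321, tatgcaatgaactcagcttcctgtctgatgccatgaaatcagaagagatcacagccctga) was bright enough on all arrays. Arrays 1 to 4 gave log2 ratios of -0.07, -0.23, -0.25 and -0.51, below 0 on all of them but close to 0 on array 1. The mean of -0.26 ± 0.18 did not pass (adjusted P = 0.0676 in limma, unadjusted P = 0.0184). With background corrected by normexp, with an offset of 50, it passed without loess (mean -0.31, adjusted P = 0.0408 in limma) and not with it (-0.17, 0.0728).

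Although no probe is named *ADSSL1*, the description of 1 probe (ENSECAT00000018746, plus strand, chr24:45583587-45585024) names adenylosuccinate synthase like 1. It is given here beside the listed genes and is not counted among them. As this stretch is longer than the 60 bases of the probe, its bases are split over a gap in the genome, as across a splice junction. Arrays 1 to 4 gave log2 ratios of -0.36, -0.62, -0.47 and -0.77, all clearly below 0. The mean was -0.56 ± 0.18 (standard error 0.08), 1.47-fold lower, with limma's adjusted P = 0.00788, and it passed whichever array was left out.

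The *MB* probe (NM_001164016, chr28:33023672-33023731, minus strand) was among the dim ones, with intensities of 46.8 to 59.0 in control and 26.5 to 45.3 in treated cells. Its sequence is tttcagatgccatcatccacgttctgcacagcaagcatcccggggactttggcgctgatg. The log2 ratio was -0.24, -0.61, -0.51 and -1.15 on arrays 1 to 4. Array 4 was the lowest and array 1 the closest to 0, and the channels did not overlap. The mean was -0.63 ± 0.38 (standard error 0.14), 1.54-fold lower, with limma's adjusted P = 0.0266. This call was lost without array 2 (adjusted P = 0.0786 in limma) or array 3 (0.072) and with no filter on dim probes (0.121). When background was corrected by normexp, with an offset of 50, before loess, the mean was -0.31 and still passed (adjusted P = 0.0334 in limma).

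The order of the means was *AMPD1* (-1.66), *CKM* (-0.80), *MB* (-0.63), *CKB* (-0.62), *CKMT2* (-0.31), *AMPD3* (-0.26) and *AK1* (0.03). With normexp and loess *MB* (-0.31) lay above *CKB* (-0.64) and beside *CKMT2* (-0.25). Differences between pairs of these genes were taken within each array and tested with an exact two-sided permutation of signs, for which 0.125 is the smallest P that 4 arrays allow, so that no pair could reach 0.05. *AMPD1* lay below *AMPD3* by -1.23, -1.26, -1.38 and -1.71 on arrays 1 to 4. The mean difference of -1.39 ± 0.22 was several times its SD (exact P = 0.125, adjusted over the 6 pairs 0.25). *AMPD1* also lay below the probe described as *ADSSL1* on all arrays, by -1.10 ± 0.26 (exact P = 0.125, adjusted 0.25). *AMPD1* was thus the lowest of these 3 genes on each array.

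Within the creatine kinases the place of *CKM* was not settled. *CKB* lay below *CKMT2* on all 4 arrays, a difference that was not tested. On arrays 1 to 4 *CKM* minus *CKB* was 0.48, -0.13, -0.44 and -0.62, with a mean of -0.18 ± 0.48 (exact P = 0.5, adjusted 0.5), and thus less than the spread. *CKM* minus *CKMT2* was above 0 on array 1 and below it on the others, with a mean of -0.49 ± 0.48 (exact P = 0.25, adjusted 0.3). *CKM* lay below *AK1* on all 4 arrays, by between -1.21 and -0.31, with a mean of -0.84 ± 0.38 (exact P = 0.125, adjusted 0.25). *CKM* minus *MB* was -0.18 ± 0.25 (exact P = 0.25, adjusted 0.3).

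**Figure D3:**
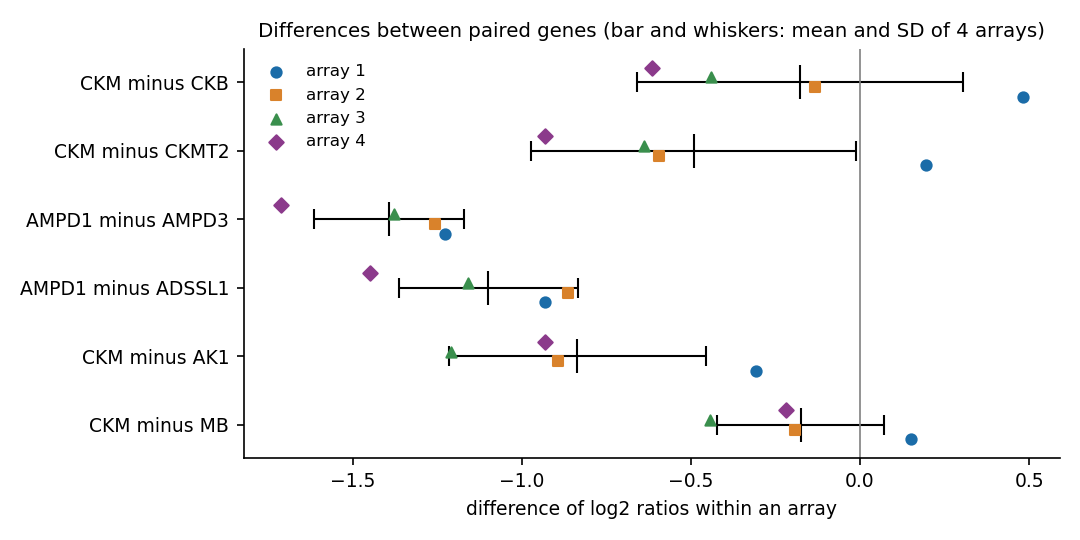
Difference of log2 ratios between paired genes within each of the 4 arrays (points, horizontal axis), with the mean and SD (bar and whiskers). *AMPD1* is below *AMPD3* and the probe described as *ADSSL1* on all 4 arrays, while *CKM* minus *CKB* runs from -0.62 to 0.48.

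The genes most like *CKM*, *AMPD1* and *MB* were taken as those with the smallest root mean square difference in log2 ratio over the 4 arrays, among 9463 other genes with a symbol. For *CKM* these were *TNNT3*, the fast troponin T (difference 0.09), the non-coding RNA *H19* (0.10) and *NEB*, which encodes the thin filament protein nebulin (0.10). *NEB* had log2 ratios of -0.23, -0.75, -1.03 and -1.49 on arrays 1 to 4, and *H19* of -0.22, -0.86, -1.03 and -1.27. Their means were -0.87 (*TNNT3*), -0.85 (*H19*) and -0.87 (*NEB*), with adjusted P values in limma of 0.0224, 0.0171 and 0.0231. All 3 calls were lost without array 2 or array 3 (adjusted P from 0.0543 to 0.0821 in limma), and that of *TNNT3* also without array 4 (0.0507). That these values and calls resemble those of *CKM* follows from the way the genes were chosen.

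The nearest genes to *AMPD1* were *MATN2*, which encodes the matrix protein matrilin 2 (difference 0.14), *SPP1* (0.27) and the chemokine gene *CXCL10* (0.27). *MATN2* had log2 ratios of -1.23, -1.30, -1.48 and -2.09 on arrays 1 to 4. Its mean was -1.53 ± 0.39 (adjusted P = 0.00227 in limma), and that of *CXCL10* was -1.52 ± 0.31 (0.00138). With normexp and loess these means were -1.09 and -0.96, and both genes still passed. No gene was as close to *AMPD1* as the nearest 3 were to *CKM*. For *MB* the nearest were *TENM3* (difference 0.06), *NKD2* (0.08) and *THBS3* (0.09), with means of -0.65, -0.60 and -0.68. In control cells all 3 were well above background on every array, but in treated cells *TENM3* was so on 2 arrays and *NKD2* on 3. These 2 thus met the filter through the control channel alone, and no call is given for them. With normexp and loess their means were -0.21 and -0.18. The likeness to *AMPD1* and *MB* again follows from the choice. Among the energy buffering genes themselves, *CKM* differed from *MB* by 0.28, from *CKB* by 0.45 and from *AMPD1* by 0.88 in the same measure.

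**Figure D4:**
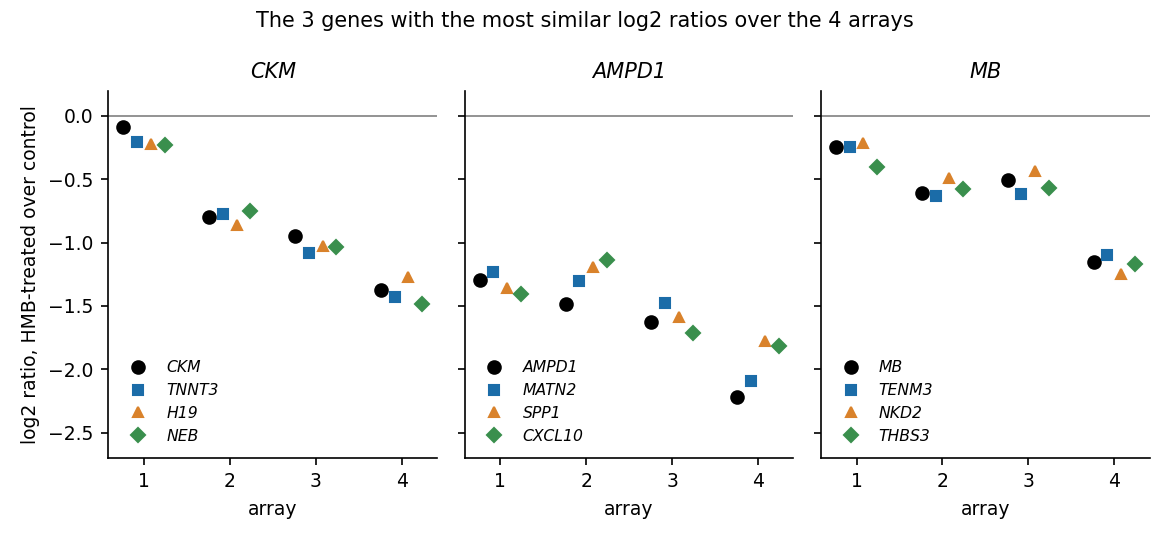
Log2 ratio of HMB-treated over control cells (vertical axis) on each array (horizontal axis, points set side by side) for *CKM*, *AMPD1* and *MB* and the 3 genes closest to each. The points around *CKM* lie between -0.23 and -0.09 on array 1 and between -1.49 and -1.27 on array 4.

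Beyond these genes, 6 lists held 45 genes, called pathway genes below, of which 33 were tested. The lists cover adjoining pathways, factors that bind the muscle creatine kinase enhancer and contractile genes. They were chosen with earlier results of these data known, so their counts are descriptive only. Of these, 18 passed as lower and 0 as higher, with a median log2 ratio of -0.36, against 0.03 over all 9474 genes, of which 22.7% passed and 11.2% passed as lower. The count was 11 without array 2, 9 without array 3, 11 with the channels compared without pairing and 4 with no filter on dim probes, where 9.35%, 9.84%, 8.13% and 8.46% of all probes passed. It was 0 with each probe tested on its own ratios (2.8% of all probes). With normexp and no loess 20 passed, 3 of them as higher, where 26.8% of all probes did. The share past the threshold was unequal between the lists, as the plot of mean log2 ratios by list shows. Of the 18 calls, 9 were contractile genes (of 9 tested) and 5 were enhancer-binding factors (of 6 tested). The other lists gave 3 of 3 for creatine supply and 1 of 5 for mitochondrial carriers and channels. For other adenylate kinases it was 0 of 2, and for the purine list 0 of 8. With so few genes, a count of 0 or 1 differs little from the 22.7% over all genes. Differences between lists were not tested.

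Creatine itself is made by the enzymes of *GATM* and *GAMT* and taken up through the transporter of *SLC6A8*. All 3 genes were lower and passed in limma, with a median of -0.39. *GATM* had log2 ratios of -0.48, -0.54, -0.84 and -1.03 on arrays 1 to 4, a mean of -0.72 ± 0.26 (adjusted P = 0.00722 in limma), and passed whichever array was left out. *SLC6A8* had a mean of -0.39 ± 0.18 (0.0212) and *GAMT* of -0.35 ± 0.21 (0.0386). Without array 2 (0.083 and 0.0934 in limma) or array 3 (0.0725 and 0.132) both of these calls were lost, as was that of *GAMT* without array 4 (0.0672). With normexp *GAMT* passed with loess (0.0294 in limma) and not without it (0.0504). The probe of *CKMT1A*, the mitochondrial creatine kinase of other tissues, was not well above background in either channel on any array. With no filter on dim probes 0 genes of this list passed, and 1 did with the channels compared without pairing.

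For the other adenylate kinases in the list, 0 of 2 tested genes passed in limma. *AK3* had a mean of -0.12 and *AK4* of 0.02. With normexp these were -0.13 and -0.02 with loess and 0.03 and -0.11 without it. *AK8* was not well above background, and no probe was found by name for *AK5*, *AK6* and *AK7*. At an unadjusted P under 0.05 there was 0 of these 2 genes, and testing each probe on its own ratios also gave 0 after adjustment.

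Of the genes for the rest of the purine nucleotide cycle and for the removal or salvage of AMP, 8 of 11 were tested and 0 passed in limma, with a median of 0.10. Here 1 gene, *NT5E*, had an unadjusted P under 0.05 (0.0379), and 0 passed after adjustment when each probe was tested on its own ratios. The broadly expressed AMP deaminase *AMPD2* had log2 ratios of 0.25, -0.11, 0.03 and 0.23 on arrays 1 to 4 (mean 0.10 ± 0.17, adjusted P = 0.411 in limma). *ADSS*, the synthase of other tissues, had a mean of 0.13 ± 0.13 and *ADSL*, the lyase, of 0.10 ± 0.07. *NT5C2* (0.12) and *NT5E* (0.22), which encode 5'-nucleotidases, were also above 0 on average, *ADA* (-0.10) and *HPRT1* (-0.07) below it, and *ADK* near it (0.04). With normexp and no loess *NT5E* passed as higher (0.32, adjusted P = 0.0234 in limma) and the mean of *HPRT1* was 0.06, against 0.19 (0.123) and -0.07 with normexp and loess. Another probe of *ADK* did pass in limma, with a mean of 0.28. *NT5C1A*, the nucleotidase of muscle cytosol, was not well above background, and *PNP* and *APRT* had no probe by name.

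Among the carriers and channels of the mitochondrial membranes, *SLC25A4*, the ADP/ATP carrier of heart and skeletal muscle, had log2 ratios of -0.57, -0.69, -0.90 and -1.19 on arrays 1 to 4. Its mean was -0.84 ± 0.27 (standard error 0.11), 1.79-fold lower, with limma's adjusted P = 0.00538. *SLC25A4* passed with all 5 of its probes and whichever array was left out. The overlap of these probes was not examined, so they may not be separate pieces of evidence. The carrier known from proliferating tissues, *SLC25A5*, had a mean of 0.06 ± 0.19 (adjusted P = 0.635 in limma), and the channels *VDAC1*, *VDAC2* and *VDAC3* had means of -0.01, -0.02 and -0.13. These are among the bright probes, and with normexp and no loess *SLC25A5* (0.48, adjusted P = 0.0201 in limma) and *VDAC2* (0.30, 0.0444) passed as higher and the means of *VDAC1* and *VDAC3* were also positive, at 0.12 and 0.21. With normexp and loess *SLC25A5* had 0.06 and *VDAC2* -0.06, and neither passed. *SLC25A4* stayed lower in both settings, at -0.49 without loess (0.00382 in limma) and -0.88 with it (0.00312).

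Of the places where the lists hold a form known from muscle beside one of other tissues, 3 were picked after the values were seen, and they are given without a test. *AMPD1* lay below *AMPD2* by -1.54, -1.38, -1.66 and -2.45 on arrays 1 to 4. The probe described as *ADSSL1* lay below *ADSS* by -0.65, -0.79, -0.59 and -0.74. *SLC25A4* lay below *SLC25A5* by -0.60, -0.69, -0.79 and -1.52. The means of these differences were -1.76 ± 0.48, -0.69 ± 0.09 and -0.90 ± 0.42. As the pairs were chosen for their values, they do not stand for all such places.

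**Figure D5:**
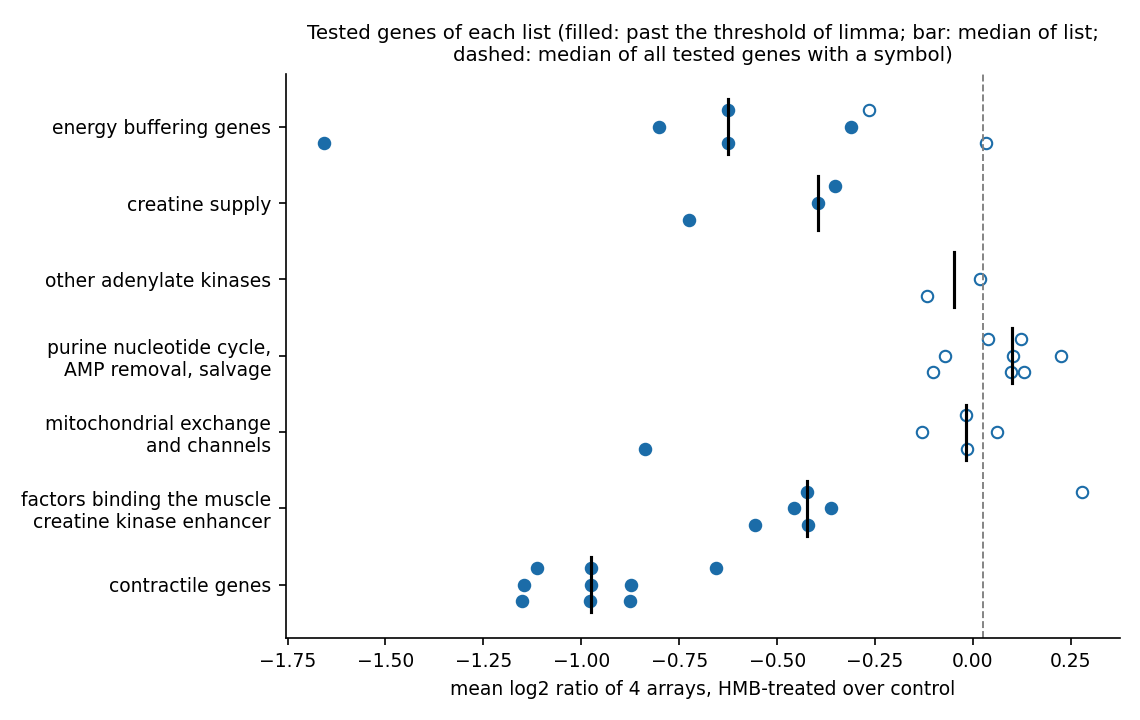
Mean log2 ratio of HMB-treated over control cells over 4 arrays (horizontal axis) for each tested gene (points), grouped by list, filled where the gene passed in the limma test; the bar is the median of the list and the dashed line the median of all 9474 tested genes (0.03). All 9 contractile genes and all 3 genes of creatine supply are filled, while 0 of 8 genes of the purine list are. Of all 9474 tested genes 22.7% passed, and the lists are small.

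The enhancer and promoter of muscle creatine kinase are known to bind, between them, MEF2 factors, myogenic basic helix-loop-helix factors, SRF and the products of *SIX4* and *KLF3*. Of 8 such genes in the list 6 were tested, and 5 passed as lower in limma, with a median of -0.42. *MYOG* had log2 ratios of -0.20, -0.31, -0.54 and -0.64 on arrays 1 to 4 (mean -0.42 ± 0.20, adjusted P = 0.0222 in limma), *SIX4* a mean of -0.42 ± 0.19 (0.0199) and *MYOD1* of -0.46 ± 0.24 (0.023), the latter with 1 of its 2 probes past the threshold. *MEF2C* (-0.56, 0.0165) and *MEF2A* (-0.36, 0.0174) passed as well. *KLF3* had a mean of 0.28 ± 0.23 and did not pass (0.0832), although 1 of its 3 probes passed as higher, with a mean of 0.43. Without array 2 only 1 of the 6 passed, which was *MEF2C* (0.044 in limma), and without array 3 it was 0, with adjusted P values from 0.0636 to 0.0909 for the 5 genes. Without array 4 *MYOD1* (0.0629) and *MYOG* (0.0503) were lost and *KLF3* passed as higher (0.38, adjusted P = 0.0322 in limma). With no filter on dim probes 0 genes of this list passed, and 1 did with the channels compared without pairing. No probe was found by name for *MEF2D* and *SRF*.

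The contractile genes showed the largest shift of the lists. All 9 that were tested passed as lower in limma, with a median of -0.98 and medians of -0.51, -0.95, -1.11 and -1.32 on arrays 1 to 4. As for *CKM*, array 1 had the smallest shift. *TNNC2*, fast troponin C, had the lowest mean, -1.15 ± 0.27 (adjusted P = 0.00211 in limma), and *MYL1* the one closest to 0, -0.66 ± 0.32 (0.0161). Between them lay *MYH7* (-1.15), *MYH3* (-1.11), *ACTA1*, *TNNC1* and *DES* (-0.98 each), *TNNI2* (-0.88) and *TNNT3* (-0.87). The call of *TNNT3* was lost without array 2 (0.0606 in limma), array 3 (0.0813) or array 4 (0.0507) and that of *MYL1* without array 3 (0.0625), and 3 of the 9 genes passed with no filter on dim probes. Many of these probes are bright, and with normexp all 9 still passed as lower, with a median of -0.93 with loess and -0.53 without it. Compared with this list, *AMPD1* lay further from 0 than any of its members, *CKM* lay within their range and *CKB*, *MB* and *CKMT2* lay nearer to 0, differences that were not tested. With normexp and no loess *CKB* (-0.53) and *MB* (-0.49) lay within the range of the list in that setting (-0.98 to -0.36).

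The label of the cells was checked against markers of satellite cells and myoblasts. *MYF5*, *MYOD1*, *NCAM1* and *DES* were well above background on every array for treated and for control cells, and *PAX7* and *CDH15* had no probe by name. All 4 were lower in treated cells and passed in limma, with a median of -0.94, *NCAM1* at -0.90 ± 0.28 (adjusted P = 0.00449 in limma). The summed intensity of the 4 probes was 33473, 32638, 35333 and 36989 in control cells and 23923, 17219, 15492 and 15609 in treated cells on arrays 1 to 4. Most of it came from *DES*, with 30700 in control and 12800 in treated cells on array 4. *DES* is also counted among the contractile genes above and *MYOD1* among the enhancer-binding factors, so these values are not separate observations. *MYOD1* did not pass without array 2 (0.088 in limma), array 3 (0.0909) or array 4 (0.0629). These markers were lower, as were the 5 energy buffering genes that passed, and all 4 had their smallest shift on array 1. So did *CKM*, *AMPD1* and *MB*, while *CKB* was closest to 0 on array 3 (-0.51) and *CKMT2* on array 2 (-0.20). The part of these markers in the results of the energy buffering genes was not tested.

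A primary muscle culture can hold fibroblasts, which the isolation aimed to reduce by preplating. Of 5 fibroblast markers 3 were tested and 1 passed in limma: *PDGFRA* was higher, with log2 ratios of 1.09, 1.38, 1.46 and 2.19 on arrays 1 to 4 and a mean of 1.53 ± 0.47 (adjusted P = 0.00358 in limma). It was highest on array 4, where each of the 7 tested energy buffering genes was lowest, also the 2 that did not pass. Array 4 had the widest ratios of all tested probes (SD 0.48). *DCN* ran the other way, with log2 ratios of 0.45, 0.17, 0.08 and -0.08 on arrays 1 to 4. *THY1*, with 0.17, -0.195, -0.28 and -0.11, was above 0 on array 1 only. *THY1* had a mean of -0.10 ± 0.20 (0.425) and *DCN* of 0.15 ± 0.22 (0.286), while the dimmer of the 2 *DCN* probes passed as higher, with a mean of 0.39. *TCF21* was well above background on 1 array in control and 2 in treated cells, and *COL1A1* had no probe by name. With normexp *DCN*, the brightest marker, passed as higher both with loess (0.36, adjusted P = 0.0325 in limma) and without it (0.93, 0.000241), and *PDGFRA* was at 0.89 and 0.78. Their summed intensity was 56821, 52721, 60006 and 71617 in control cells and 77444, 59009, 63288 and 67685 in treated cells on arrays 1 to 4, nearly all of it from *DCN*. The part of the fibroblast markers in the lower muscle genes was not tested.

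Of 8 markers of adipocytes, endothelium, leukocytes and red cells, *ALAS2* alone was tested (mean 0.02, adjusted P = 0.88 in limma), with intensities of 450, 385, 323 and 234 in control and 502, 376, 333 and 218 in treated cells. *ADIPOQ*, *FABP4* and *PECAM1* were not well above background on any array in either channel, *CDH5* was so on 1 array in control cells and *HBB* on 1 array in each channel. *PLIN1* and *PTPRC* had no probe by name.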

How the data were processed

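Messenger RNA of HMB-treated and control ESC was measured on 4 two-colour horse arrays, with HMB-treated cells in Cy5. The authors made the spot values with Feature Extraction, version 10.10.1.1 in the files and a different one in the methods section. The deposited processed intensity is background-subtracted and dye-normalised, and the deposited log10 ratio of Cy5 over Cy3 was made from it by the authors after linear and lowess normalisation. The deposited raw intensity values (mean signal, local background) served the normexp alternatives only. Marks that Feature Extraction sets on a spot (well above background, non-uniform, outlying, saturated) were read from the deposited files too.

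For the log2 scale, ratios were multiplied by 3.32. Spots marked non-uniform or outlying (11, 17, 32 and 15 on arrays 1 to 4) were left out, no spot was saturated, and the remaining spots of each probe were averaged. To be tested, a probe had to have at least 3 values and 1 channel that stood well above background, in every one of its spots, on each of the 4 arrays. The median ratio of signal to background was 3.16 to 3.82 in Cy3 and 4.68 to 5.85 in Cy5. Of the tested probes, 17038 were named by the files and 522 through accessions in the RefSeq gene table of the assembly TB-T2T. Tests used R 4.3.3 with limma 3.58.1 (an intercept and moderated variances), checked on simulated ratios, and data.table (1.17.8), Python 3.11.15, numpy 2.4.6, pandas 2.3.3 and matplotlib 3.10.9. Alternatives were normexp with an offset of 50 with or without loess, each probe tested on its own ratios without moderation (the methods section names no test), a trended robust prior, unpaired channels, the array as replicate block, other filters, marked spots kept, ratios from the summary table, gene means, a minimum of 1.3-fold and each array left out (at least 2 values).

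Named were all listed genes, the genes of the lists and the 3 genes nearest to *CKM*, *AMPD1* and *MB*. Some genes of these pathways are not reported here and are not counted in the lists. The members and lists were chosen with earlier results of these data known.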

Additional observations from a re-analysis of the deposited data

Results flagged for a closer look

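Each of 61 sets of 4 values (log2 ratios and intensities of the genes named) was searched for an array standing apart from the others by Dixon's criterion, which chance meets in about 1 in 20 sets. It was met once. The log2 ratio of *MYH7*, the slow myosin heavy chain gene, was -0.70 on array 1, whereas the other 3 arrays lay between -1.32 and -1.25.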

How the results depend on the processing

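All 6 tested differences between paired genes kept their sign in the 7 alternatives run for them. The ranges over these were -1.45 to -1.16 for *AMPD1* minus *AMPD3*, -1.18 to -0.94 for *AMPD1* minus *ADSSL1*, -1.01 to -0.71 for *CKM* minus *AK1*, -0.72 to -0.30 for *CKM* minus *CKMT2*, -0.40 to -0.03 for *CKM* minus *CKB* and -0.50 to -0.09 for *CKM* minus *MB*. *AMPD1* and *CKB* passed in 15 of 16 alternatives, all but the test of each probe on its own ratios (adjusted P of 0.0639 and 0.0502 there, against 0.0019 and 0.00333 in limma), *MB* in 12 and *CKM* and *CKMT2* in 11.

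With each probe tested on its own ratios 768 probes passed after adjustment, against 6257 in limma, with 0 of the 7 energy buffering genes and 0 pathway genes, while 8435 probes had an unadjusted P under 0.05 in it and 10546 in limma. With no filter on dim probes 3690 probes, 3 of the 7 genes and 4 pathway genes passed. With the channels compared without pairing 2226 probes and 11 pathway genes passed, and 29.9% of the probes called were higher in HMB-treated cells, against 49.1% in limma on the ratios. An added minimum of 1.3-fold left 3863 probes. The fit with the array as replicate block is the same as that on ratios and gave 6257 probes and the same counts of 5 and 18 genes. Leaving out 1 array gave between 2573 and 4957 probes, with 36.4% higher without array 2, between 2 and 5 of the 7 genes and between 9 and 18 pathway genes. The mean of *AK1* then ran from -0.043 (without array 3) to 0.19 (without array 4), and was -0.03 without array 1. The cause of these changes was not tested.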
